A study of Rattus norvegicus with 6 samples.

Results

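The translation initiation factors of LPS-stimulated microglia, with and without siponimod, comprised 46 of the 23139 genes listed in the count tables. They were chosen by name, as all genes whose symbol begins with Eif and a digit, without the eIF2 alpha kinases (Eif2ak), pseudogenes of Eif5a and the Y-linked Eif2s3y, and with the Eif4ebp genes that encode inhibitors of eIF4E. Primary microglia were taken from cortices of Wistar rats at postnatal day 1, shaken off mixed cultures and sorted with CD11b/c beads. All 6 libraries came from cells given 100 ng/mL lipopolysaccharide (LPS, a bacterial membrane component that activates microglia), 3 with the solvent DMSO (termed LPS) and 3 with 50 µM siponimod (termed LPS/siponimod), a modulator of sphingosine 1-phosphate receptors. The symbols Eif5, Eif4b and Eif1ax, for further initiation factors, were not among the 46 found by this choice of names and were not analysed here. The time of harvest is not given in the labels. Cells without LPS and cells given siponimod alone were not analysed here, so that no value says what LPS itself did to these genes.

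Initiation begins when a 43S complex, made of the small ribosomal subunit, the initiator tRNA carried by eIF2 and the factors eIF1, eIF1A, eIF3 and eIF5, is loaded onto the mRNA by the cap-binding complex eIF4F (eIF4E, eIF4A and eIF4G) and scans for the start codon. eIF2B recharges eIF2 with GTP, and kinases that phosphorylate eIF2 alpha block this step in the integrated stress response, which favours translation of the transcription factor ATF4. 4E-BP proteins, which are inactivated by the kinase complex mTORC1, compete with eIF4G for eIF4E.

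Total counts were 39484979, 38301365 and 38080379 in LPS replicates 1, 2 and 3, and 46643859, 43336006 and 38857441 in LPS/siponimod replicates 1, 2 and 3. The initiation factor genes together took 0.567%, 0.701% and 0.819% of the counts in LPS replicates 1, 2 and 3, against 0.789%, 0.769% and 0.851% after siponimod. The LPS libraries were therefore spread more widely than the LPS/siponimod libraries, and the 2 sets overlapped. LPS replicate 3 stood apart from LPS replicates 1 and 2, with a correlation of log2 CPM (read counts scaled to library size) over genes of 0.935 and 0.945, against 0.983 between those 2. Summed markers of microglia were 9219, 7575 and 5104 CPM in LPS replicates 1, 2 and 3, and markers of the oligodendrocyte lineage 5.34, 5.37 and 36.0 CPM, so that LPS replicate 3 was lowest in the first and highest in the second. Among the 45 initiation factor genes with enough counts for a test, 33 had their highest LPS value in LPS replicate 3 and 35 their lowest in LPS replicate 1. Of all genes tested, 40.8% had their highest LPS value in LPS replicate 3 and 34.1% their lowest in LPS replicate 1. Replicates carry the same numbers in both conditions, and the median log2 difference of the 45 genes was 0.42 in pair 1, 0.05 in pair 2 and -0.13 in pair 3.

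**Figure D1:**
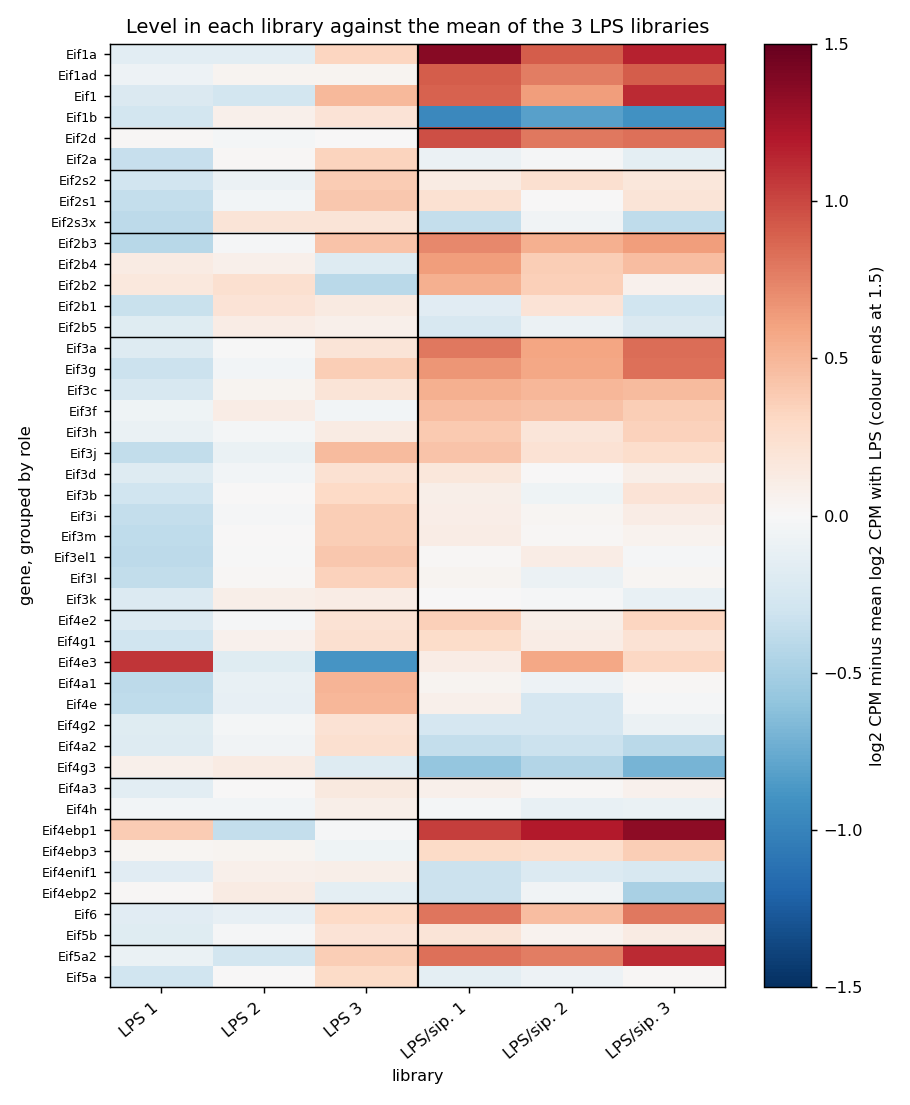
Level of each of the 45 tested initiation factor genes in the 6 libraries, as log2 CPM minus the mean log2 CPM of the 3 LPS libraries (colour), with genes grouped by role and the black vertical line dividing LPS from LPS/siponimod. LPS 3 is the highest of the LPS columns for 33 genes and LPS 1 the lowest for 35. In 15 rows, among them Eif1a, Eif1ad, Eif2d and Eif4ebp1, all 3 LPS/siponimod columns lie above all 3 LPS columns. In 4 rows, among them Eif1b, they lie below.

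A minority of these genes passed the test. By edgeR's quasi-likelihood test on all 11977 genes with enough counts, 8 of the 45 were upregulated differentially expressed genes (DEGs) and 1 was downregulated, where a DEG differed at least 1.5-fold with an adjusted p not above 0.05. This was 17.8% and 2.22% of the genes, where 13.6% of all genes tested were upregulated and 11.7% downregulated DEGs, so that the share that rose was close to the background. The share that fell, which is 1 gene, lay below the background, and this difference was not tested. A gene that is not a DEG is not shown to be unchanged. In simulated data of this size the same test missed most changes as large as those seen here. Far fewer genes were changed there than were DEGs here, which makes the adjusted p stricter. The share missed therefore does not carry over to these genes. The upregulated genes were Eif1a, Eif1ad, Eif2d, Eif4ebp1, Eif3a, Eif6, Eif5a2 and Eif3g, and the downregulated gene was Eif1b. Without LPS replicate 3, 11 were upregulated and 2 downregulated, with Eif1, Eif2b3, Eif3c and Eif4g3 added, where 15.9% of all genes tested were upregulated and 14.5% downregulated. The other fits without 1 library gave fewer upregulated genes, both among these 45 and among all genes tested. They numbered 2 without LPS replicate 2 (3.72% of all genes tested) or LPS/siponimod replicate 1 (4.7%), 3 without LPS/siponimod replicate 3 (6.26%), 4 without LPS replicate 1 (8.75%) and 6 without LPS/siponimod replicate 2 (11.8%). Fewer cells of a type and less RNA per cell cannot be told apart in bulk samples. The median log2 fold change (FC) was 0.11, with a range from -0.91 to 1.16, and that of all genes tested was -0.02. An unadjusted p below 0.05 in edgeR's test was found for 18 of the 45 genes and for 5234 of all 11977 genes tested. All 3 LPS/siponimod libraries lay above all 3 LPS libraries for 15 of the 45 genes (25.3% of all genes tested) and below them for 4 (24% of all genes tested), and the groups overlapped for 26. The 46th gene, the pseudogene Eif6-ps1, had 1 count in LPS replicate 3 and none elsewhere and was not tested.

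**Figure D2:**
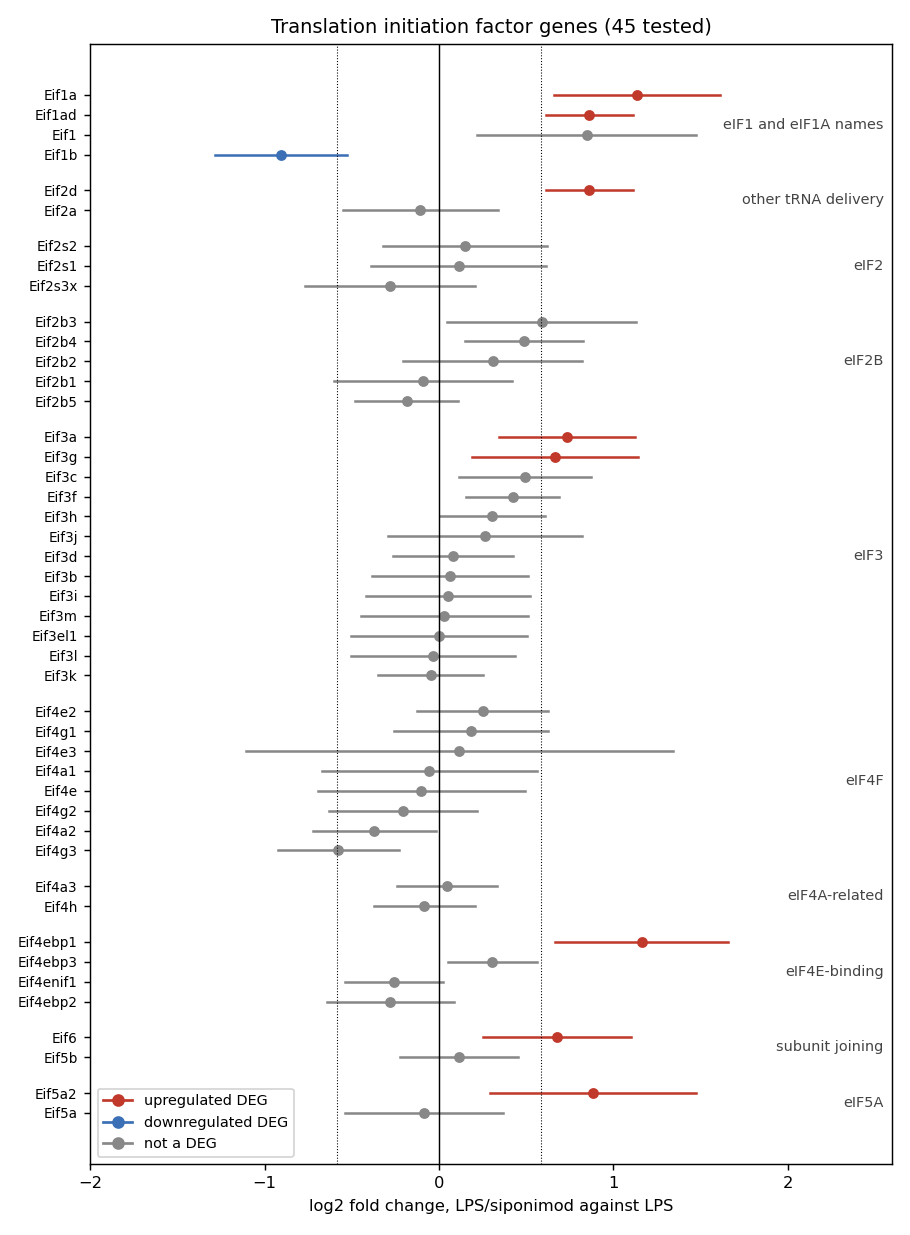
Log2 FC of LPS/siponimod against LPS (horizontal axis) for the 45 tested genes, grouped by role, with points for edgeR estimates and lines for 95% confidence intervals from 3 libraries per condition. Dotted lines mark a fold change of 1.5, and 8 upregulated and 1 downregulated DEG are coloured among genes that mostly lie between -0.6 and 0.6.

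Of the 4 genes named for eIF1 and eIF1A, Eif1a and Eif1ad rose, Eif1b fell and Eif1 did not pass edgeR's quasi-likelihood test for the condition alone. Eif1a encodes eIF1A, which together with eIF1 opens the small subunit for scanning. Its level was 67.5, 67.8 and 94.2 CPM in LPS replicates 1, 2 and 3 and 194, 142 and 168 CPM in LPS/siponimod replicates 1, 2 and 3. Every LPS/siponimod library lay above every LPS library, and the gene rose (log2 FC 1.13, standard error 0.20, edgeR adjusted p = 0.0127). Eif1ad, named for its eIF1A-like domain and not known as a scanning factor, was at 39.1, 42.1 and 42.1 CPM with LPS and at 77.0, 69.8 and 77.3 CPM with LPS/siponimod. The gap between the groups was wider than the range within either, and the rise was 1.82-fold (log2 FC 0.86, standard error 0.10, edgeR adjusted p = 0.00666). Eif1ad was a DEG whichever of the 6 libraries was left out, whereas Eif1a was one in 4 of the 6 such fits and not without LPS replicate 2 or LPS/siponimod replicate 1 (edgeR adjusted p = 0.0602 and 0.0551).

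Eif1 and Eif1b are closely related genes for eIF1, the factor that guards start codon choice, and their log2 FCs had opposite signs. Eif1b fell in CPM from 26.0, 33.2 and 36.3 with LPS to 16.2, 18.0 and 16.8 with LPS/siponimod, without overlap between the groups (log2 FC -0.91, standard error 0.16, edgeR adjusted p = 0.0127). It was not a DEG without LPS replicate 2, LPS/siponimod replicate 1 or LPS/siponimod replicate 3, where the adjusted p was at most 0.0641 by the same test. Eif1 was at 214, 205 and 348 CPM with LPS and at 456, 383 and 539 CPM with LPS/siponimod, so that LPS replicate 3 approached the lowest LPS/siponimod library. Its log2 FC of 0.85 (standard error 0.26) missed the threshold with an edgeR adjusted p of 0.0541, and with the replicate number as a block Eif1 was a DEG (log2 FC 0.88, edgeR adjusted p = 0.0144), as it was without LPS replicate 3 (log2 FC 1.14, edgeR adjusted p = 0.0169). Within a library, where depth cancels out, Eif1b counts were 0.122, 0.162 and 0.104 of Eif1 counts with LPS, as opposed to 0.0355, 0.0469 and 0.0312 with LPS/siponimod. The ratio of LPS/siponimod to LPS was 0.293 for this measure, and the log2 differences in pairs 1, 2 and 3 were -1.78, -1.79 and -1.74. How reads shared by near-identical copies were assigned is not stated, so that the levels of such pairs are uncertain.

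**Figure D3:**
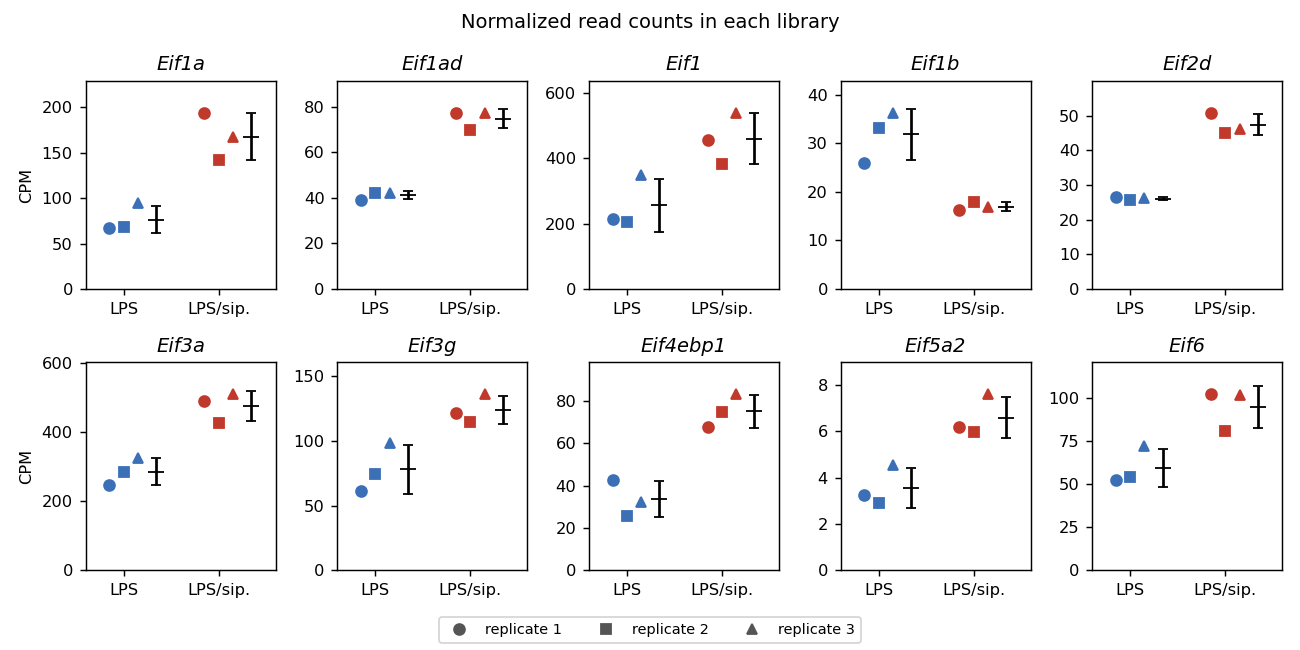
Normalized counts (CPM, vertical axes starting at 0) of the 9 DEGs among the initiation factor genes and of Eif1 in each library, with symbols for replicates 1 to 3 and black bars for mean ± SD of 3 libraries. In all 10 panels the LPS and LPS/siponimod points do not overlap, and Eif1b is the gene whose LPS/siponimod points lie lower.

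Among the genes for delivery of the initiator tRNA, Eif2d rose while no gene of eIF2 itself was a DEG. Eif2d encodes a factor that can place tRNA on the small subunit without GTP. It was at 26.4, 25.6 and 26.2 CPM with LPS and 50.8, 45.0 and 46.3 CPM with LPS/siponimod. The LPS libraries were within 1 CPM of each other and the rise was 1.82-fold (log2 FC 0.86, standard error 0.10, edgeR adjusted p = 0.00655), a call that held in all 6 fits without 1 library. Eif2a, whose product is another initiator tRNA-binding factor and not the alpha subunit of eIF2, had a log2 FC of -0.11 with a 95% confidence interval from -0.55 to 0.34.

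The 3 subunits of eIF2 held no DEG by edgeR, none at an unadjusted p below 0.05 and none by DESeq2 or limma-voom. Eif2s1 (the alpha subunit that the stress kinases phosphorylate) was at 81.1 ± 21.6 CPM with LPS and 87.7 ± 7.39 CPM with LPS/siponimod (SD, n = 3 each). Eif2s2 (beta) had 163 ± 40.6 against 181 ± 7.56 CPM and Eif2s3x (gamma) 151 ± 32.5 against 124 ± 16.1 CPM. Intervals of the log2 FC ran from -0.39 to 0.61, from -0.32 to 0.62 and from -0.77 to 0.20 for the 3 subunits in this order, all of which include a change of 1.5-fold. The count ratio of Eif2s2 to Eif2s1 was 2.11, 1.96 and 2.00 with LPS, as opposed to 1.87, 2.39 and 2.00 with LPS/siponimod, and the groups overlapped.

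Of the 5 subunits of eIF2B, the exchange factor for eIF2, none was a DEG by edgeR, DESeq2 or limma-voom, and 2 had an unadjusted p below 0.05. These 2 were Eif2b3 and Eif2b4, for the gamma and delta subunits, and 5234 of all 11977 genes tested had such a p. Eif2b4 was at 21.1 ± 2.39 CPM with LPS and 29.5 ± 2.65 CPM with LPS/siponimod (SD, n = 3 each) without overlap, and the difference stayed under 1.5-fold (log2 FC 0.49, standard error 0.14, edgeR adjusted p = 0.045). Eif2b3 was at 13.1, 17.3 and 23.6 CPM with LPS and 28.9, 25.3 and 27.0 CPM with LPS/siponimod (log2 FC 0.59, standard error 0.22, edgeR adjusted p = 0.0947). Without LPS replicate 3, its highest LPS library, Eif2b3 was a DEG (log2 FC 0.83, edgeR adjusted p = 0.0199). The log2 FC was 0.31 for Eif2b2, -0.09 for Eif2b1 and -0.19 for Eif2b5, the catalytic epsilon subunit, and none of these 3 passed the test. The log2 FCs of the 5 subunits thus lay on both sides of 0, and the count ratio of Eif2b3 to Eif2b1 was 0.874, 0.791 and 1.13 with LPS, as opposed to 1.72, 1.16 and 1.75 with LPS/siponimod.

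The 13 genes of eIF3, the large scaffold that joins the small subunit to the mRNA and to eIF4G, held 2 upregulated DEGs, 11 positive and 2 negative log2 FCs, and a median of 0.08. The upregulated share of 15.4% was close to the 13.6% of all genes tested. All 3 LPS/siponimod libraries lay above all 3 LPS libraries for 5 of the 13, as for 25.3% of all genes tested. Eif3a, the gene of its largest core subunit, was at 248, 283 and 325 CPM with LPS and 489, 426 and 509 CPM with LPS/siponimod. The groups were separate and the rise was 1.66-fold (log2 FC 0.73, standard error 0.16, edgeR adjusted p = 0.023). Eif3g, for an RNA-binding subunit, was at 61.3, 74.6 and 98.7 CPM with LPS and 122, 114 and 136 CPM with LPS/siponimod (log2 FC 0.67, standard error 0.20, edgeR adjusted p = 0.049). Its call lay at the threshold and was kept in 1 of the 6 fits without 1 library, the one without LPS replicate 3. That of Eif3a was kept in 2, without LPS replicate 3 or LPS/siponimod replicate 2. In the other fits the edgeR adjusted p was at most 0.0925 for Eif3a and at most 0.144 for Eif3g. Eif3c, Eif3f and Eif3h, named after their values were seen, also lay higher in every LPS/siponimod library, with log2 FCs of 0.49, 0.42 and 0.31, and were not DEGs. For the 8 other subunit genes the log2 FC was between -0.05 and 0.26 and the groups overlapped. In the RefSeq table Eif3el1 is a gene of its own and also an older symbol of Eif3e, so that which of them its counts stand for is uncertain.

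No gene of the cap-binding complex eIF4F and its paralogues was a DEG by edgeR, DESeq2 or limma-voom with all libraries and the filter on low counts, and 2 of 8 had an unadjusted p below 0.05. This was no more than the background, where 5234 of all 11977 genes tested had such a p. Eif4e, the cap-binding protein, was at 81.9, 98.1 and 150 CPM with LPS and 113, 89.8 and 105 CPM with LPS/siponimod, and Eif4a1, the helicase, at 468, 568 and 878 CPM against 634, 586 and 621 CPM. For both, LPS replicate 3 was the highest of all 6 libraries and LPS replicate 1 the lowest. The sign of the difference turned without LPS replicate 3, from -0.10 to 0.19 for Eif4e and from -0.06 to 0.25 for Eif4a1 on the log2 scale, and neither value passed the test. Eif4g1, the scaffold, had 592 ± 108 CPM with LPS and 672 ± 38.8 CPM with LPS/siponimod, and Eif4g2, a relative that lacks the eIF4E-binding site, 1182 ± 167 against 1024 ± 68.3 CPM (SD, n = 3 each). The log2 FC of Eif4e2 was 0.25 and that of Eif4e3, whose counts were between 64 and 248 in the 6 libraries, 0.12 with an interval from -1.11 to 1.34.

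The 2 eIF4F genes with an unadjusted p below 0.05 were Eif4g3 and Eif4a2. Eif4g3 was at 214, 223 and 178 CPM with LPS and 136, 150 and 126 CPM with LPS/siponimod, without overlap (log2 FC -0.58, standard error 0.14, edgeR adjusted p = 0.031). The size of this difference lay just under the fold threshold, and Eif4g3 was a downregulated DEG by edgeR in 3 of the 13 alternatives, with no filter on low counts, without LPS replicate 3 and without LPS/siponimod replicate 2 (Eif4g3 log2 FC -0.59, -0.67 and -0.65, edgeR adjusted p = 0.0499, 0.0193 and 0.0447). Eif4a2 was at 138, 152 and 186 CPM with LPS and 123, 126 and 119 CPM with LPS/siponimod (log2 FC -0.37, edgeR adjusted p = 0.102). Eif4a3, the helicase of the exon junction complex, and Eif4h, a cofactor of eIF4A, had log2 FCs of 0.05 and -0.08, were no DEGs by edgeR, DESeq2 or limma-voom and had no unadjusted p below 0.05.

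Among the genes for eIF4E-binding proteins, 1 of 4 rose. Eif4ebp1 encodes 4E-BP1 and is a known target of ATF4. It was at 42.7, 25.7 and 32.5 CPM with LPS and 67.6, 74.9 and 83.2 CPM with LPS/siponimod. The groups were separate and the rise of 2.24-fold (log2 FC 1.16, standard error 0.21, edgeR adjusted p = 0.0134) was the largest log2 FC of the 45 genes in this fit. It stayed a DEG in 3 of the 6 fits without 1 library, and in the others (without LPS replicate 2, LPS/siponimod replicate 1 or LPS/siponimod replicate 3) its edgeR adjusted p was at most 0.0529. Eif4ebp2 had 64.5 ± 5.87 CPM with LPS and 53.2 ± 8.33 CPM with LPS/siponimod (log2 FC -0.28, edgeR adjusted p = 0.20), Eif4ebp3 94.8 ± 3.47 and 117 ± 4.97 CPM (log2 FC 0.31, edgeR adjusted p = 0.0719), and Eif4enif1, the nuclear import factor of eIF4E, 61.6 ± 6.03 and 51.5 ± 2.21 CPM (log2 FC -0.26, edgeR adjusted p = 0.136; SD, n = 3 each). The ratio of the paralogues differed in each pair. Eif4ebp2 counts were 1.53, 2.71 and 1.79 times those of Eif4ebp1 with LPS and 0.761, 0.830 and 0.551 times with LPS/siponimod. Eif4ebp1 counts were 0.522, 0.262 and 0.216 of Eif4e counts with LPS, as opposed to 0.600, 0.835 and 0.790 with LPS/siponimod, and in pair 1 the log2 difference was 0.20.

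**Figure D4:**
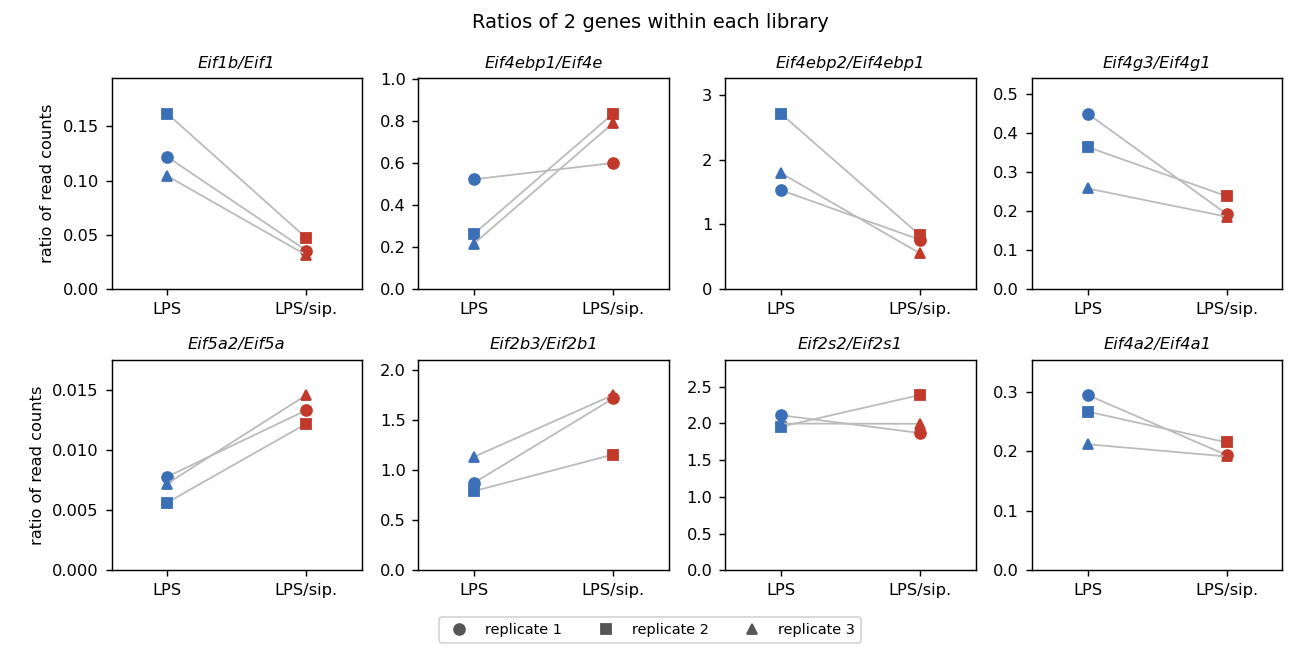
Ratio of the read counts of 2 genes in the same library (vertical axes starting at 0) for 8 of the 12 ratios computed, with symbols for replicates 1 to 3 and grey lines joining same-numbered libraries. The groups do not overlap in 6 panels, from Eif1b/Eif1 to Eif2b3/Eif2b1, and they overlap for Eif2s2/Eif2s1 and Eif4a2/Eif4a1.

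Counts were compared in this way for 12 pairs of genes, and in 8 the 3 LPS and 3 LPS/siponimod ratios did not overlap. By level, the LPS/siponimod libraries lay wholly above for 25.3% and wholly below for 24% of all genes tested. No such share was computed for ratios of other genes, and several of the 12 share a gene. The 8 therefore do not set these pairs apart. With 3 libraries against 3, the exact two-sided permutation test cannot go below p = 0.10, and the smallest value adjusted over the 12 ratios was 0.15. No outcome of this test could have passed a threshold of 0.05, so that the ratios are given as values and the missing calls say nothing about them. Raw counts also depend on transcript length, and a ratio is therefore read for its difference between conditions and not as relative abundance.

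Eif6 and Eif5a2 were the remaining upregulated genes. Eif6, whose product keeps the large subunit from joining too early, was at 52.3, 54.1 and 72.2 CPM with LPS and 102, 81.0 and 102 CPM with LPS/siponimod (log2 FC 0.68, standard error 0.18, edgeR adjusted p = 0.0351). LPS replicate 3 was again the highest of the LPS libraries, and the call was kept in 2 of the 6 fits without 1 library, those without LPS replicate 3 or LPS/siponimod replicate 2, with an edgeR adjusted p of at most 0.128 in the others. Eif5b, for the GTPase that joins the subunits, had a log2 FC of 0.12 (edgeR adjusted p = 0.556). The eIF5A proteins carry the name of initiation factors and are known to act in elongation. Eif5a2 was at 3.26, 2.91 and 4.54 CPM with LPS and 6.20, 5.96 and 7.60 CPM with LPS/siponimod, from raw counts of 112 to 169 and of 266 to 312. It rose 1.84-fold (log2 FC 0.88, standard error 0.24, edgeR adjusted p = 0.0411), a call kept in 1 of the 6 fits, without LPS replicate 3, with an edgeR adjusted p of at most 0.133 in the others. Its paralogue Eif5a, the common form of the hypusine-bearing factor, was at 419, 515 and 630 CPM with LPS and 465, 489 and 521 CPM with LPS/siponimod, with overlap (log2 FC -0.08).

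Regulators of eIF2 included larger fold changes. Of 8 genes, 4 for eIF2 alpha kinases, 2 for phosphatase subunits that reverse them, and Dnajc3 and Nck1 for regulators of the kinases, 4 were upregulated DEGs and 1 was downregulated. This was 50% and 12.5% of the list, where 13.6% of all genes tested were upregulated and 11.7% downregulated DEGs. Ppp1r15a (GADD34), the stress-inducible subunit that directs the phosphatase to eIF2 alpha, rose from 22.9, 14.2 and 45.0 CPM with LPS to 823, 445 and 755 CPM with LPS/siponimod (log2 FC 4.62, standard error 0.53, edgeR adjusted p = 0.00647). Its constitutive counterpart Ppp1r15b was at 101 ± 3.87 CPM in LPS libraries and 163 ± 1.07 CPM in LPS/siponimod libraries (SD over 3 libraries each), a rise by the same test (log2 FC 0.68, edgeR adjusted p = 0.00986). Eif2ak3, the kinase PERK of the endoplasmic reticulum, rose from 14.0 ± 3.61 to 33.1 ± 4.40 CPM (log2 FC 1.24, edgeR adjusted p = 0.0148). Dnajc3, for an inhibitor of PERK and PKR, rose from 57.4 ± 11.3 to 117 ± 20.7 CPM (log2 FC 1.02, edgeR adjusted p = 0.0185). The calls of Eif2ak3 and Dnajc3 were lost without LPS replicate 2, LPS/siponimod replicate 1 or LPS/siponimod replicate 3 (edgeR adjusted p of at most 0.0683 and 0.0784), and that of Ppp1r15b without LPS replicate 2 (edgeR adjusted p = 0.0523). Eif2ak2, the interferon-inducible kinase PKR, fell from 345 ± 30.3 to 130 ± 27.9 CPM (log2 FC -1.41, edgeR adjusted p = 0.00779). Atf4 itself, shown only for reference, was at 157, 124 and 160 CPM with LPS and 861, 678 and 859 CPM with LPS/siponimod.

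Downstream of initiation, 1 of 7 tested elongation factor genes was an upregulated DEG, Eef1a1 (2990, 3320 and 3675 CPM with LPS and 6815, 6006 and 7182 CPM with LPS/siponimod, log2 FC 1.00, edgeR adjusted p = 0.0189), with a call lost without LPS replicate 2, LPS/siponimod replicate 1 or LPS/siponimod replicate 3 (edgeR adjusted p of at most 0.0781). Eef2 lay just past the threshold (log2 FC 0.64, edgeR adjusted p = 0.0508) and was a DEG by DESeq2 and limma-voom. Of 8 release and recycling genes, Pelo, for a factor that rescues stalled ribosomes, rose (log2 FC 2.65, standard error 0.25, edgeR adjusted p = 0.00467), and of 7 genes for poly(A)-binding proteins and their partners, Paip2b, for an inhibitor of the poly(A)-binding protein, rose (log2 FC 1.78, edgeR adjusted p = 0.0108; 0.053 without LPS replicate 2). Pabpc4, for a poly(A)-binding protein, missed the threshold (log2 FC 1.17, edgeR adjusted p = 0.0502) and under the replicate block became a further DEG of that list (log2 FC 1.21, edgeR adjusted p = 0.0289), as by DESeq2 and limma-voom. Mknk1, for a kinase of eIF4E, was the DEG among 3 eIF4E kinase and eIF4A inhibitor genes (log2 FC 0.79, edgeR adjusted p = 0.0371), a call kept only without LPS replicate 3 among the 6 fits without 1 library (edgeR adjusted p of at most 0.116 in the others). Among 19 genes of mTORC1 and its regulators, 4 were upregulated (21.1%) and 1 was downregulated (5.26%). Of all genes tested, 13.6% were upregulated and 11.7% downregulated DEGs, which is the background for every list of this paragraph. The 3 upregulated ones with the smallest p-values were Sesn2 (log2 FC 0.95, edgeR adjusted p = 0.0123) and Akt1s1 (0.68, 0.0183), both for inhibitors of the complex, and Rragd (2.86, 0.0297), for one of its activating GTPases, while Sesn3, another inhibitor, fell (-1.74, 0.0269). Sesn1 was a further downregulated DEG by DESeq2 (DESeq2 adjusted p = 0.0177) and by edgeR's likelihood ratio test (adjusted p = 0.0275). Of the 6 fits without 1 library, Sesn2 lost its call in 2 (without LPS replicate 2 or LPS/siponimod replicate 1, edgeR adjusted p of at most 0.0654). Akt1s1 and Sesn3 lost theirs in 4, all but those without LPS replicate 3 or LPS/siponimod replicate 2 (edgeR adjusted p of at most 0.0827 and 0.0932), and Rragd in 4, all but those without LPS replicate 1 or LPS replicate 3 (edgeR adjusted p of at most 0.113). Both mitochondrial initiation factor genes had negative log2 FCs and neither was a DEG by edgeR, DESeq2 or limma-voom, 1 having an unadjusted p below 0.05. Of 56 tested genes for cytosolic ribosomal proteins none was an upregulated DEG by edgeR, DESeq2 or limma-voom and 2 were downregulated, the paralogues Rpl3l (log2 FC -1.71) and Rps27l (-1.69), 7 had an unadjusted p below 0.05 in either direction, and the median log2 FC was 0.06. The background for these counts of unadjusted p is 5234 of all 11977 genes tested. Rpl3l kept its call in 1 of the 6 fits without 1 library, that without LPS replicate 3, and lost it with no filter on low counts, and Rps27l kept its call in 2, those without LPS replicate 3 or LPS/siponimod replicate 2 (edgeR adjusted p of at most 0.132 and 0.114 in the other fits without 1 library).

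Promoter sequences, from 250 bases before to 50 after the annotated start, were found in the RefSeq table of assembly GRCr8 for 41 of the 46 genes, without Eif3el1, Eif3h, Eif4ebp1, Eif4e3 and Eif6-ps1. The reads had been mapped to another assembly, mRatBN7.2. The table was searched on both strands for TGATGCAAT, the composite element of ATF4 and C/EBP, its looser form TGATGNAAN that includes the first, the CRE TGACGTCA, the ATF element TGACGCAA and the E-box CACGTG. TGATGCAAT and TGACGTCA were in none of the 41, and in 0.117% and 3.16% of the 10282 promoters of tested genes. The same 2 motifs were also absent from these windows of Atf4, Ddit3, Trib3, Asns and Chac1, known genes of the integrated stress response, all 5 of them upregulated DEGs, and Trib3 and Chac1 held TGATGNAAN. TGATGNAAN was in 2, Eif3g and Eif2s2 (1.92% of promoters of tested genes), and TGACGCAA in 1, Eif4a3 (0.963%). CACGTG was in 9 of the 41 (22%, against 9.40% of promoters of tested genes and 6.42% of all 33469 promoters), among them Eif1b, Eif3a and Eif5a2 of the 8 DEGs with a promoter. These windows show matches upstream of the start in 3 of the DEGs, because these genes changed, with the motif in capitals, on the strand of the gene.
Eif1b: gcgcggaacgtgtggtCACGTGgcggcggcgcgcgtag
Eif5a2: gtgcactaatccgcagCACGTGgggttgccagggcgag
Eif3g: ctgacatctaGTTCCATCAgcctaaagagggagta
The windows lie at chr8:129081088-129081125 (plus strand), chr2:113657622-113657659 (plus strand) and chr8:27710162-27710196 (minus strand, motif on the opposite strand of the gene) of GRCr8. A match describes these letters only, and Eif1b, with the E-box at position -54 from the start, fell while Eif5a2, with it at -196 and again at -171, rose.

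Each of 12 defining markers of microglia had counts in all libraries, but Cx3cr1 and P2ry12 were low with LPS/siponimod. Cx3cr1 was at 1.86, 5.24 and 0.941 CPM with LPS and 0.0646, 0.470 and 0.0974 CPM with LPS/siponimod. P2ry12 was at 15.8, 15.8 and 1.16 CPM with LPS and 0.387, 2.37 and 0.317 CPM with LPS/siponimod. The sum of the 12 markers was 7299 ± 2071 CPM with LPS and 4262 ± 1000 CPM with LPS/siponimod (SD, n = 3 each). It therefore says little about Cx3cr1 or P2ry12. Of the 12 markers, 3 (Aif1, Itgam and Cx3cr1) were downregulated DEGs. This was 25% of these markers, against 11.7% of all genes tested. Csf1r was the most abundant over all 6 libraries, with Cd68 above it in the mean of LPS/siponimod and Itgam in LPS replicate 3. Sums of other cell types were 28.4 ± 12.2 against 37.3 ± 17.6 CPM for 7 astrocyte markers, mostly Slc1a3, 15.6 ± 17.7 against 14.7 ± 6.79 CPM for 8 oligodendrocyte lineage markers, 4.66 ± 5.73 against 10.8 ± 5.42 CPM for 6 neuron markers, mostly Tubb3, and 58.4 ± 44.9 against 18.6 ± 5.44 CPM for 8 fibroblast and vessel markers, mostly Pecam1. Mbp was the most abundant oligodendrocyte lineage marker over all 6 libraries, and Olig1, at 13.8 CPM, was so in LPS replicate 3. Kdr had no count in any library, and Mog and Nefl had at most 3 in each. Upregulated DEGs among these markers were Mbp (1 of 3 oligodendrocyte lineage markers tested), Snap25 (1 of 2 neuron markers) and Dcn (1 of 6 fibroblast and vessel markers). Of all genes tested, 13.6% were upregulated DEGs. Snap25 had 0, 1 and 1 counts and Dcn 3, 0 and 4 counts in LPS replicates 1, 2 and 3. Transcripts of mitochondrial genes took 1.54%, 1.39% and 1.41% of counts with LPS, as opposed to 0.313%, 0.610% and 0.568% with LPS/siponimod. The part of these shifts in the values of the initiation factor genes was not tested, nor was that of overlapping genes: 17 of the 46 overlap another gene in the RefSeq annotation, among them Eif2b1, Eif3i and Eif3j, which overlap Gtf2h3, Tmem234 and Spg11.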

How the data were processed

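The authors trimmed single-end reads of polyA-selected mRNA, mapped them to the rat genome (mRatBN7.2) in the CLC Genomics Workbench and deposited total counts per gene, without normalization, for each of 6 libraries. The handling of strand and of reads matching several genes is not stated. In 1 library 1 row without a name was left out, which held 0 counts.

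The tests used edgeR 4.0.16 under R 4.3.3, with filterByExpr (minimum count 10, minimum total 15), TMM (factors between 0.939 and 1.056), glmQLFit and glmQLFTest for the condition alone, and Benjamini-Hochberg adjustment over 11977 genes. The standard error is the log2 FC divided by the square root of F. CPM are TMM-scaled, and values within pairs use a prior count of 2. The DEG thresholds were 0.05 for the adjusted p and 1.5 for the fold change. The procedure was tested on simulated data, where few unchanged genes were called, estimates were unbiased, and recovery was low for small changes and rose with the fold change. Far fewer genes were changed there than were DEGs in these data, so that the recovery does not carry over to them. Each condition had 3 replicates, which the study's methods call biological. The labels do not say whether they came from separate cultures, and otherwise the p-values measure technical spread only.

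Same-numbered libraries deviated together (correlation over genes 0.42, 0.545 and 0.611 after centring on the group mean). On this evidence the numbers were used as pairs for the differences within pairs and for the replicate block. The main test and the fits without 1 library did not use the pairing. Alternatives were RLE, DESeq2 1.42.0, limma-voom (limma 3.58.1), the likelihood ratio test, other filters, a replicate block and each library left out.

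Genes named are all DEGs among the initiation factors, all genes of eIF2, eIF2B, eIF4F and eIF4E-binding proteins, those of the 12 ratios, genes under the filter, and up to 3 DEGs per direction of each related list. The members and lists were chosen with earlier results of these data known. Atf4, Dnajc3, Eef2, Pabpc4, Sesn1, the genes of the promoter search, the other members of small groups (Eif2a, Eif4a3, Eif4h, Eif5b) and cell type markers were named outside this rule.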

Additional observations from a re-analysis of the deposited data

How the results depend on the processing

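Of the 9 DEGs among the initiation factor genes, Eif1ad and Eif2d were DEGs under all 13 alternatives. RLE normalization and a mean of at least 1 CPM gave the same 9 genes, and DESeq2, limma-voom, the likelihood ratio test and the replicate block added Eif1. The replicate block gave 9 upregulated and 1 downregulated gene of 45 (2114 and 1960 of all genes) and changed no other call of these genes. With no filter there were 6 upregulated and 2 downregulated genes, Eif3g and Eif5a2 being lost and Eif4g3 added, where 8.38% and 6.53% of 17057 genes were called, and the Eif3el1 log2 FC was -0.00422. With single libraries left out, upregulated initiation factor genes numbered from 2 (without LPS replicate 2, or without LPS/siponimod replicate 1) to 11 (without LPS replicate 3), and downregulated ones from 0 to 2. All genes ranged from 469 to 1941 upregulated and from 182 to 1772 downregulated DEGs in the same fits, and fewer libraries enter them. The median log2 FC of the 45 genes was between 0.01 (without LPS replicate 1) and 0.24 (without LPS replicate 3). The log2 FC changed sign in some of these fits for 14 genes, none of them a DEG, ranging from -0.26 to 0.0271 for Eif2b1, from -0.0292 to 0.34 for Eif2s1, from -0.22 to 0.25 for Eif4a1, from -0.26 to 0.19 for Eif4e, from -0.22 to 0.85 for Eif4e3, from -0.20 to 0.0778 for Eif5a, from -0.25 to 0.0773 for Eif2a, from -0.0555 to 0.23 for Eif3b, from -0.16 to 0.23 for Eif3el1, from -0.0891 to 0.26 for Eif3i, from -0.13 to 0.0105 for Eif3k, from -0.18 to 0.16 for Eif3l, from -0.12 to 0.24 for Eif3m and from -0.0122 to 0.13 for Eif4a3, and the cause was not tested. Of 818 values for 63 genes under the alternatives (all 45, Atf4 and the related genes given with a log2 FC), 68 lost and 20 gained a call, and 24, of these 14 genes, changed sign.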

Other observations

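Eif2s3y, the Y-linked relative of Eif2s3x that was left out by name, was at 42.8, 23.7 and 41.6 CPM with LPS and 45.0, 22.4 and 38.8 CPM with LPS/siponimod. Replicate 2 was the lowest in both conditions. Kdm5d, another Y-linked gene, was at 11.7 CPM in replicate 2 of either condition and between 18.5 and 26.1 CPM in the other libraries. Both genes were chosen after their values were seen.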
